A study of Mus musculus with 12 samples.

Results

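RNA from mouse aorta after a high-fat diet was compared between libraries titled HSAPN, from animals labelled as APPL1 knockdown (n = 3), and libraries titled HFD, from animals labelled WT for genotype (n = 2 distinct libraries). Both groups were fed 60% kcal fat for 12 weeks. The comparison covered the 1541 genes, of 3534 in the table, that reached at least 1 FPKM (fragments per kilobase of transcript, scaled to the depth of the library) in at least 2 of these 5 libraries. Each group has 3 files in the series, but the files titled HFD1 and HFD2 hold the same values and count here as 1 library, written HFD 1/2. A group on a standard diet (WT, n = 3) and a further high-fat group of WT genotype titled HAPN (n = 3) give context. The sources used here do not explain the letters HAPN and HSAPN. They give neither the agent, promoter or cell type of the knockdown, nor the animals' age and strain. They do not say whether replicates were separate animals, so p-values measure the spread between these samples, which may be technical.

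APPL1 is an adaptor protein on early endosomes that binds the adiponectin receptors AdipoR1 and AdipoR2 and links them, and the insulin receptor, to AMPK and Akt. In vessels this pathway is known for promoting nitric oxide release by the endothelium and fatty acid use in muscle. Adiponectin itself is made by fat cells, which surround the aorta, and T-cadherin, encoded by Cdh13, binds it on the vessel wall. Of 21 genes listed for this pathway, 3 were in the table and 2, Adipoq and Cdh13, passed the filter. Not analysed here were Appl1 and Appl2, the receptor genes Adipor1 and Adipor2, and Nos3, the endothelial nitric oxide synthase, so no value of Appl1 tests the label of the knockdown.

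The libraries held 15610000 to 17840000 reads, recovered from the FPKM steps, of which the table's genes take 12.0 to 17.6%. Smooth muscle markers were present in all 5 libraries (Acta2 at 146 to 466 FPKM), and the listed endothelial markers were not analysed here. The HFD libraries stood apart from each other more than any HSAPN library stood from either of them. HFD 1/2 and HFD 3 differed by more than 1 on the log2(FPKM + 1) scale in 350 of 1541 genes (22.7%), 317 of them higher in HFD 1/2. Pairs of HSAPN libraries differed in 66 to 102 genes, HSAPN against HFD 3 in 87 to 144, and HSAPN against HFD 1/2 in 233 to 295. Genes of fat, heart and airway differed along with this: Adipoq stood at 92.6 FPKM in HFD 1/2 and 0.174 in HFD 3, the cardiac gene Tnnt2 at 64.6 and 0.752, and the airway gene Bpifa1 at 6438 and 5.84. HSAPN libraries lay between those levels, with Tnnt2 at 5.62, 3.45 and 28.7 FPKM and Bpifa1 at 27.9, 35.2 and 1149. HFD 3 also had 1.37% of its reads on 3 models with rRNA-like sequence, against 0.036 to 0.123% in the other 10 libraries. Genes below are therefore given by their value in each library, and list medians against each HFD library alone where their direction turns. The part of these differences in the results was not tested, and in bulk tissue fewer cells of a type and less RNA per cell cannot be told apart.

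**Figure D1:**
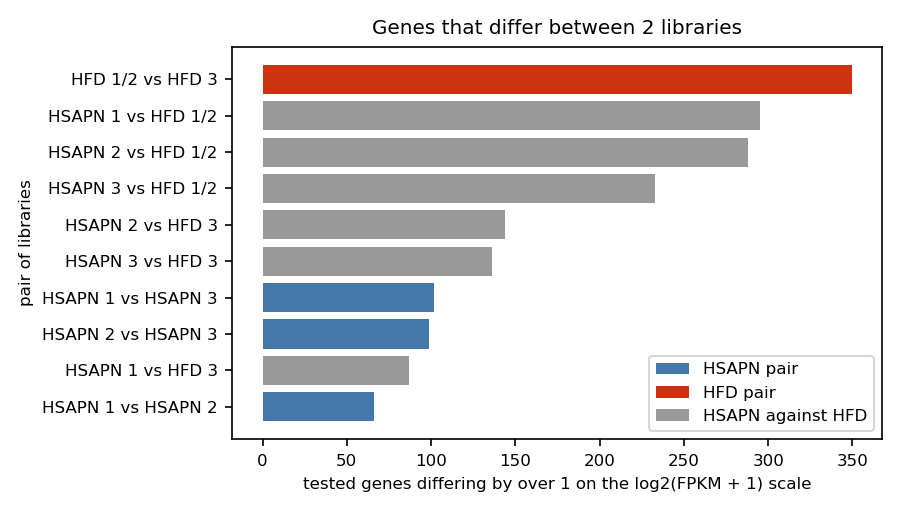
Number of the 1541 genes differing by more than 1 on the log2(FPKM + 1) scale (horizontal axis) for each pair of libraries (vertical axis), coloured by pair type. The HFD pair has the longest bar at 350 genes, and the HSAPN pairs lie between 66 and 102.

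**Figure D2:**
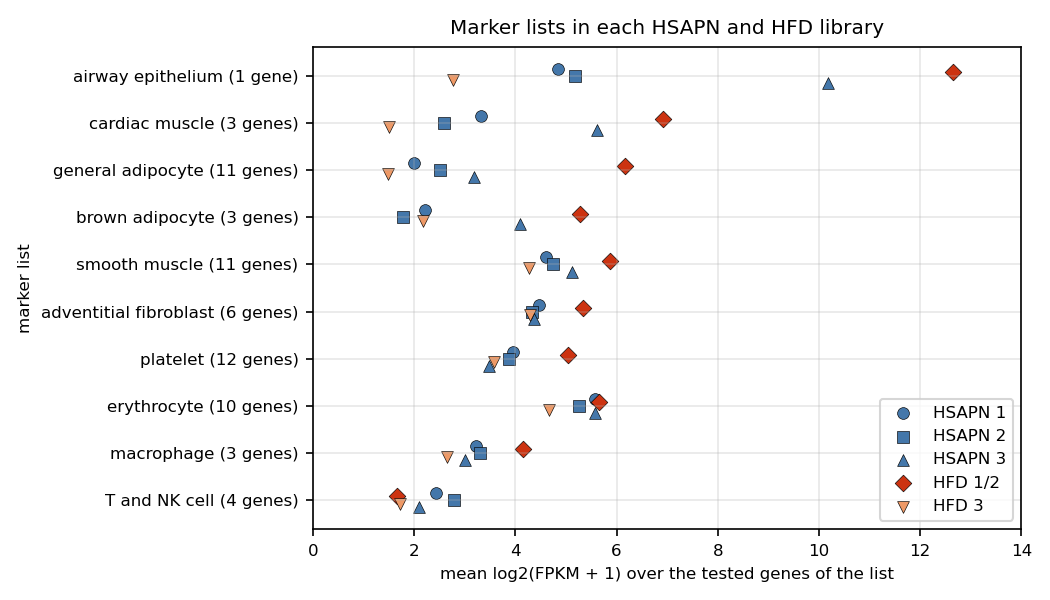
Mean log2(FPKM + 1) over the tested genes of each marker list (horizontal axis), 1 point per library. HFD 1/2 stands at the right for fat, cardiac, airway, smooth muscle and platelet lists, HFD 3 at or near the left, while both lie left of all 3 HSAPN libraries for T and NK cell genes.

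With both HFD libraries, 1 of 1541 genes passed the adjusted threshold of 0.05 (0.0649%; limma, Benjamini-Hochberg): Igkv1-133, an antibody light chain segment, fell in HSAPN. Without adjustment, 66 genes (4.28%) had a p under 0.05, fewer than the 77 that 5% of the tested genes comes to. A count model, limma-voom on recovered reads, called 0 of 1509 genes, its smallest adjusted p being 0.736 and its unadjusted p falling under 0.05 in 61 genes. The groups did not overlap in 311 genes (20.2%), with HSAPN above both HFD values in 88 (5.71%) and below both in 223 (14.5%). More genes were lower than higher in HSAPN, 1125 (73%) against 416 (27%), with a median log2 difference of -0.18. That excess came to 815 lower (52.9%) and 726 higher (47.1%) after median-ratio scaling, which moved the median by 0.16 to -0.02 and gave 172 non-overlapping genes higher (11.2%) and 113 lower (7.33%). Apart from Igkv1-133, and Hspa1a and Hspa1b against HAPN, the genes described did not pass the threshold, and their values are given as measurements.

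**Figure D3:**
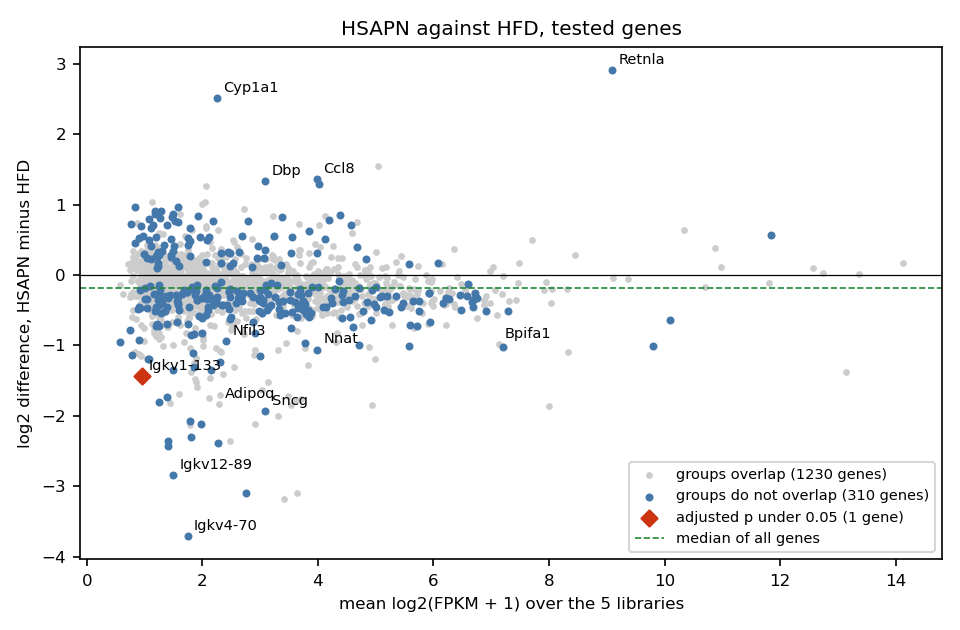
Log2 difference HSAPN minus HFD (vertical axis) against mean log2(FPKM + 1) over the 5 libraries (horizontal axis), 1 point per tested gene, with genes whose groups do not overlap in blue. The dashed line marks the median of -0.18, the diamond is Igkv1-133, and Retnla and Cyp1a1 have the highest points at 2.91 and 2.51.

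Igkv1-133 encodes a variable segment of the kappa antibody light chain and lies on chromosome 6 at 67724902 to 67725661 on the plus strand of GRCm38. Part of its coding sequence is shown with that of its closest relative, Igkv1-135, since their likeness bears on which segment the reads came from. Both are from GENCODE M21 on GRCm38, plus strand, over 2 exons spanning chr6:67724914-67725661 and chr6:67609745-67610508. The stretch runs from base 44 to base 343 of 362 coding bases, counted from the start codon, and capitals mark the 12 bases at which the pair differ, all of which lie in it.
Igkv1-133: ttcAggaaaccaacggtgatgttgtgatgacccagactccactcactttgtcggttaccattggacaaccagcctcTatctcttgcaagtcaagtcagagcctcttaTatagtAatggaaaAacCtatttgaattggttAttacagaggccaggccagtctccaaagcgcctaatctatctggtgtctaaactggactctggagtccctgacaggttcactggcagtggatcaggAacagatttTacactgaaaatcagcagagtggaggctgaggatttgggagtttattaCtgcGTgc
Igkv1-135: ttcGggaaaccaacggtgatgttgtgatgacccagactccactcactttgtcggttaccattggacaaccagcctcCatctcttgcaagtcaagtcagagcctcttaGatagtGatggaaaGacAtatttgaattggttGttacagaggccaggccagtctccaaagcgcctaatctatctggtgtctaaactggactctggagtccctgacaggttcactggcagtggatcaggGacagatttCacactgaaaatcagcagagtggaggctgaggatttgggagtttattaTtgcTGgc
The pair share 96.7% of their bases, with 95 bases as the longest shared stretch, and 2 further segments share 93.4% each with Igkv1-133. These relatives were not analysed here, and the sources do not say how reads matching more than 1 segment were counted, so the assignment to Igkv1-133 is uncertain.

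Igkv1-133 stood at 2.35 and 2.73 FPKM in HFD 1/2 and HFD 3. In HSAPN it stood at 0.303, 0.152 and 0.483 FPKM. All 3 HSAPN libraries were thus below both HFD libraries, and HAPN was as low, at 0.494, 0.3 and 0.511 FPKM, while WT stood at 0, 0 and 0.315. These levels come from 14 and 17 reads in HFD and 2, 1 and 3 in HSAPN. The log2 difference was -1.44 (SE 0.186, limma adjusted p = 0.0345), and the gene passed the expression filter through its HFD values alone, so a gene that entered the test this way had to be lower in HSAPN. The call was lost under 11 alternatives, among them pseudocounts of 0.1 (adjusted p = 0.718) and 0.5 (0.154), median-ratio scaling (0.0628), limma-voom (0.736) and each omission of an HSAPN library (0.189, 0.207 and 0.0577), with a range over all alternatives of 0.00419 to 0.736; without either HFD library it fell below the filter.

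Antibody variable segments, which B cells and plasma cells rearrange in a clonal fashion, were low in HSAPN more often than not. Of 47 segments listed, 36 were tested, 31 lower and 5 higher in HSAPN (30 and 6 after scaling), and 12 lay entirely below HFD and 0 entirely above. Over all tested genes 73% were lower (52.9% after scaling), 14.5% lay entirely below HFD and 5.71% entirely above. Of those 12 segments, 4 were under 1 FPKM in all 3 HSAPN libraries, so they passed the filter through HFD alone and had to be lower. Against HFD 3 alone 28 segments passed the filter, 17 of them lower and 11 higher. Their median log2 difference was -1.48 against -0.18 for all tested genes, and 1 of them, Igkv1-133, passed the threshold. The list was drawn from the gene types of GENCODE M21 after values had been seen. Against HFD 3 alone the median was -0.46, and against HFD 1/2 alone -1.82. The mean log2(FPKM + 1) of the list was 0.58, 1.52 and 2.24 in HSAPN and 3.4 and 2.19 in HFD, so the groups overlapped. The listed B and plasma cell markers were not analysed here, and the part of such cells in these values was not tested.

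The next segments were picked after their values were seen. Igkv12-89 stood at 11.0 and 6.05 FPKM in HFD and at 0.335, 0.337 and 0.178 in HSAPN, from 59 and 34 reads against 2, 2 and 1. Its log2 difference was -2.84 (SE 0.45, limma adjusted p = 0.0881), and it passed the threshold when the identical HFD files entered as separate libraries (adjusted p = 0.012). Igkv12-89 and Igkv4-70 were both under 1 FPKM in all HSAPN libraries, so they too entered the test through HFD alone and had to be lower. Igkv4-70 stood at 11.9 and 17.9 FPKM in HFD and at 0.149, 0.301 and 0.159 in HSAPN. In HAPN, Igkv4-70 ran from 0.841 to 54.2 FPKM, a spread within 1 group wider than the gap between HFD and HSAPN, and it was the 1 gene called when HSAPN and HFD were fitted alone (limma adjusted p = 0.0221). Igkv4-91 stood at 22.1 and 24.7 FPKM in HFD and at 0.158, 3.98 and 3.03 in HSAPN. The constant region gene Ighg1, which encodes the heavy chain of IgG1, overlapped between the groups, with 5.68 and 48.5 FPKM in HFD and 0.743, 1.19 and 18.5 in HSAPN.

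Of the clock genes tested, Nr1d2 and Dbp had higher levels in HSAPN than in HFD and Nfil3 a lower one. The clock is a loop in which CLOCK and BMAL1 activate genes that include Nr1d2, encoding the repressor REV-ERB beta, and Dbp, encoding a PAR bZIP activator. NFIL3 is a bZIP repressor that binds the same DNA element as DBP, and REV-ERB proteins are known to repress its gene through RORE elements, whose core is AGGTCA. Nr1d2 stood at 28.9, 21.4 and 26.8 FPKM in HSAPN against 16.1 and 11.5 in HFD (log2 0.86, SE 0.236, limma adjusted p = 0.549). Dbp stood at 12.5, 7.92 and 14.5 FPKM in HSAPN against 4.33 and 3.5 in HFD (log2 1.33, SE 0.473). Both genes lay higher in all 3 HSAPN libraries than in either HFD library. Nfil3 lay the other way, at 3.44, 2.76 and 3.18 FPKM in HSAPN against 8.81 and 5.37 in HFD (log2 -0.94, SE 0.241, limma adjusted p = 0.549). Hlf, a further PAR bZIP gene, overlapped, with 3.45, 2.56 and 2.09 FPKM against 2.54 and 1.62. Of 20 clock genes listed, those 4 were tested, 3 higher and 1 lower (27% and 73% of all tested genes), and 0 passed the threshold. Of the 4, 2 lay entirely above HFD and 1 entirely below (5.71% and 14.5% of all). After scaling 3 lay above and 1 below (11.2% and 7.33% of all). Nr1d2, Dbp and Nfil3 were also among the genes of smallest p, a choice that required the groups not to overlap. The directions were the same after scaling and against each HFD library alone, with Nfil3 at -1.25 against HFD 1/2 and -0.63 against HFD 3. In HAPN, Nfil3 stood at 7.79, 7.81 and 8.62 FPKM and Dbp at 3.79, 2.36 and 2.39, and in WT Nfil3 stood at 3.72, 3.81 and 5.84 and Dbp at 18.1, 36.7 and 9.3. Nfil3 was thus lower in every HSAPN library than in every HAPN library (log2 -1.14, limma adjusted p = 0.146, and 0.0241 after median-ratio scaling), and Dbp and Nr1d2 were higher, while HSAPN and WT overlapped in Dbp. The sources do not state the hour at which tissue was taken, and its part in these differences was not tested.

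The promoters of Nr1d2 and Nfil3 are shown because these genes differed in opposite directions and both hold the AGGTCA core. Each run covers 250 bases before to 50 after the start in RefSeq on GRCm38.p6, both on the minus strand, at chr14:18239057-18239356 and chr13:52980990-52981289, and capitals mark AGGTCA on either strand.
Nr1d2: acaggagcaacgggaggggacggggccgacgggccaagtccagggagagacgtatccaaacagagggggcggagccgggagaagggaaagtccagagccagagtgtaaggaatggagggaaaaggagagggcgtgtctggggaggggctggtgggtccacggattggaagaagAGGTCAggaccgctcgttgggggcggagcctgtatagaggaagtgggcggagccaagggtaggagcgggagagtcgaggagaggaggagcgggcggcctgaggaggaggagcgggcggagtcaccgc
Nfil3: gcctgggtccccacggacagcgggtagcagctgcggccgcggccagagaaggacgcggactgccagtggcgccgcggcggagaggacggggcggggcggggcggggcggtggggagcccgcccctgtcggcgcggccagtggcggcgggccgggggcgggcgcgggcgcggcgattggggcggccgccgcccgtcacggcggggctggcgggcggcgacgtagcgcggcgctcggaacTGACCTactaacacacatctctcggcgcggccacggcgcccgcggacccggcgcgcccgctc
Of 32851 RefSeq promoters of the same length, 16.3% hold AGGTCA on either strand, so a match in these windows is a description and does not show binding.

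Cyp1a1 had the highest ratio of mean FPKM between HSAPN and HFD among the 23 genes described that had the smallest p-values outside the antibody segments and unnamed models. It encodes a cytochrome P450 enzyme that is the classic target of the aryl hydrocarbon receptor, a sensor of xenobiotics and of some tryptophan products. Cyp1a1 stood at 12.6, 4.32 and 11.2 FPKM in HSAPN against 0.293 and 1.19 in HFD, so every HSAPN library exceeded both HFD libraries. Its log2 difference was 2.51 (SE 0.646, limma adjusted p = 0.549), and 2.89 and 2.13 against HFD 1/2 and HFD 3 alone. HAPN stood at 0.664, 1.59 and 2.75 FPKM, below all HSAPN libraries, and WT at 3.46, 3.73 and 16.1, overlapping them. Of 20 genes listed for this pathway, 5 were in the table and 3 were tested. Cyp1b1, another target of the receptor, overlapped at 5.59, 6.18 and 5.22 FPKM in HSAPN against 7.41 and 5.37 in HFD. Cyp2e1 overlapped too, at 5.43, 5.94 and 6.39 FPKM against 159.8 and 2.87.

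The Cyp1a1 promoter is shown for the core of the xenobiotic response element, GCGTG, in capitals (either strand). The run is chr9:57697363-57697662, plus strand, RefSeq on GRCm38.p6.
Cyp1a1: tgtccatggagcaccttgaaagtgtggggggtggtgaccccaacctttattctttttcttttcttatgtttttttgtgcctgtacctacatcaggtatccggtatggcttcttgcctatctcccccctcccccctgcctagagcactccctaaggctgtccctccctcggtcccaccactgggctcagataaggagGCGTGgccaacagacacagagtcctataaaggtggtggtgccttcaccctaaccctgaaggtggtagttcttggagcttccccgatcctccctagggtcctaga
It holds 1 match, and 32.4% of the 32851 promoters hold at least 1, so the match is again a description.

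Retnla, Arg1 and Ccl8, which macrophages can express, had higher levels in HSAPN, and the eosinophil gene Prg2 a lower one. These 4 were named for their small p-values, not as members of a macrophage or eosinophil list. Retnla, a secreted marker of alternatively activated macrophages, stood at 431, 1570 and 2665 FPKM in HSAPN against 130 and 200 in HFD. Its log2 difference of 2.91 (SE 0.859, limma adjusted p = 0.687) was the highest among the genes named here, and 3.22 and 2.60 against HFD 1/2 and HFD 3 alone. HAPN stood at 460, 206 and 238 FPKM and WT at 1197, 195 and 593, so HSAPN overlapped both. Arg1, the arginase of the same macrophage state, stood at 1.02, 1.84 and 2.19 FPKM in HSAPN against 0.677 and 0.378 in HFD (log2 0.79). Ccl8, a chemokine for monocytes and T cells, stood at 20.6, 33.0 and 15.9 FPKM against 7.26 and 8.82 (log2 1.36, SE 0.47, limma adjusted p = 0.863). All 3 genes were higher in every HSAPN library than in both HFD libraries, but Arg1 was under 1 FPKM in both HFD libraries and passed the filter through HSAPN alone, so it had to be higher. The 3 tested macrophage markers of the list, Adgre1, Cd163 and C1qb, were all lower in mean level and overlapped between the groups, and their median of -0.19 was -1.03 against HFD 1/2 and 0.47 against HFD 3. Cd209f, a C-type lectin gene, was on the low side at 0.399, 0.487 and 0.606 FPKM in HSAPN against 4.05 and 1.3 in HFD, although it passed the filter through HFD alone.

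Prg2, encoding the major basic protein of eosinophil granules, was lower in all 3 HSAPN libraries, at 0.676, 0.476 and 1.94 FPKM against 2.63 and 5.74 in HFD (log2 -1.35, SE 0.369, limma adjusted p = 0.549). It stood at 2.13, 4.42 and 2.66 FPKM in HAPN and at 0.341, 0.534 and 0.421 in WT. Every HSAPN library was thus below every HAPN library, and HSAPN overlapped WT. The mast cell protease genes Cma1 and Cpa3 overlapped between the groups.

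**Figure D4:**
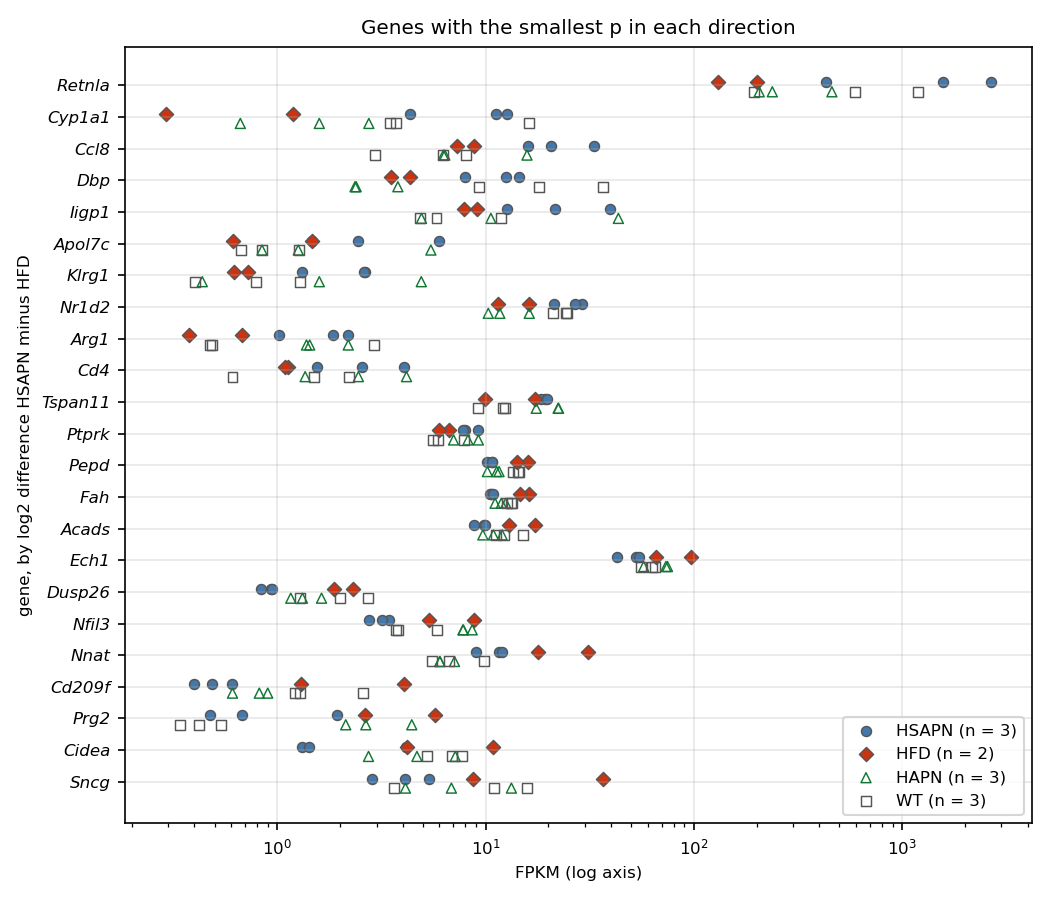
FPKM on a log axis (horizontal) for 12 higher and 11 lower genes among those with the smallest p in each direction, antibody segments and unnamed models left out (vertical, ordered by log2 difference), with 1 symbol per library. Retnla and Cyp1a1 lead the upper genes and Sncg closes the lower ones; in all 23 the HSAPN circles do not overlap the HFD diamonds, as the choice of genes requires, and none passed the threshold.

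The tested T and NK cell genes had higher mean levels in HSAPN against either HFD library. Of 12 T and NK cell markers, 4 were tested, all 4 higher, 3 of them without overlap (5.71% of all tested genes), and 0 past the threshold (median log2 0.74, and 0.88 after scaling). Cd4, the co-receptor of helper T cells, stood at 2.54, 4.06 and 1.55 FPKM in HSAPN against 1.12 and 1.09 in HFD. Prf1, encoding perforin, stood at 2.19, 2.51 and 1.89 FPKM against 0.827 and 1.09. Gzmb, encoding granzyme B, stood at 3.59, 4.6 and 3.23 FPKM against 2.01 and 1.38. Nkg7, a cytotoxic granule gene, overlapped by HSAPN replicate 3, with 15.4, 21.1 and 9.62 FPKM against 7.22 and 9.93. Klrg1, an inhibitory receptor of NK and effector T cells, stood at 2.64, 2.62 and 1.32 FPKM against 0.622 and 0.723 (log2 0.90, SE 0.503), but it was under 1 FPKM in both HFD libraries and entered the test through HSAPN alone. HAPN spanned these levels, with Gzmb at 1.16, 3.64 and 30.5 FPKM and Klrg1 at 0.436, 1.59 and 4.91.

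Interferon response genes stood on the same side. Of 33 listed, 9 were tested, 8 higher and 1 lower, 4 entirely above HFD (5.71% of all tested genes), and 0 past the threshold (median log2 0.52, and 0.68 after scaling, with 5 entirely above and 11.2% of all genes; 0.56 and 0.68 against HFD 1/2 and HFD 3 alone). Of the 8 higher genes, 1 was under 1 FPKM in both HFD libraries and passed the filter through HSAPN alone. The filter thus favoured a higher value for it, and it counts in these medians. Iigp1, an interferon-induced GTPase, stood at 21.6, 39.6 and 12.7 FPKM in HSAPN against 7.86 and 9.13 in HFD (log2 1.30, SE 0.762, limma adjusted p = 0.885). Gbp4, a guanylate-binding protein, stood at 13.9, 15.2 and 8.13 FPKM against 6.47 and 6.24. Cxcl10, a chemokine induced by interferon gamma, overlapped at 4.45, 15.1 and 1.36 FPKM against 0.893 and 2.22, as did Ifit2 at 7.71, 11.0 and 4.60 against 4.67 and 5.05. Replicate 2 was the highest of the HSAPN libraries in these 4 genes and replicate 3 the lowest. The exception to the direction was Ifi27l2a, at 109, 140 and 102 FPKM against 516 and 56.5. In HAPN, Iigp1 stood at 4.92, 10.6 and 43.4 FPKM and Gbp4 at 4.67, 8.19 and 46.6, and the median of the list against HAPN was -0.06.

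Cytokine and chemokine genes were mixed, with 8 of 12 tested higher and 4 lower, 3 entirely above and 2 entirely below HFD (median log2 0.36, and -0.05 against HFD 1/2 alone). Over all tested genes 27% were higher, 5.71% lay entirely above HFD and 14.5% entirely below. Beside Ccl8, Ccl5, a T cell chemokine, stood above HFD in each library, at 24.8, 27.7 and 14.9 FPKM against 10.5 and 14.3, but overlapped after scaling. Ccl11, the eosinophil chemokine eotaxin, was below HFD in each, at 2.77, 3.06 and 3.12 FPKM against 4.59 and 3.22. Il33, an alarmin of stromal cells, overlapped at 13.2, 41.2 and 37.2 FPKM against 18.2 and 17.3. Among 4 tested receptors 3 were higher, with Il2rb, a chain of the interleukin 2 receptor, at 4.64, 6.1 and 3.5 FPKM against 2.82 and 1.88, and Tnfrsf1b at 16.6, 18.7 and 13.5 against 13.4 and 7.53.

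Cell cycle genes were higher in 7 of 8 tested, 4 of them without overlap (5.71% of all tested genes) and 0 past the threshold (median log2 0.46; 0.27 and 0.63 against HFD 1/2 and HFD 3 alone). Ccnb2, encoding cyclin B2, stood at 3.33, 5.47 and 3.62 FPKM in HSAPN against 2.5 and 2.47 in HFD. Ccna2, encoding cyclin A2, stood at 1.53, 2.85 and 1.39 FPKM against 1.36 and 0.913. The inhibitor gene Cdkn1a, encoding p21, overlapped at 55.3, 29.9 and 39.5 FPKM against 34.9 and 57.6; after scaling all 8 genes were on the higher side.

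Genes of fatty acid oxidation had lower mean levels in HSAPN than in the HFD pair. The pathway carries fatty acids into mitochondria and shortens them in cycles, and PPAR alpha is a known activator of many of its genes. Of 29 genes listed, 22 were tested, 22 lower and 0 higher, 8 entirely below HFD, and 0 past the threshold (median log2 -0.50), where 73% of all tested genes were lower and 14.5% entirely below. After scaling 20 were lower with a median of -0.31 and 9 without overlap (7.33% of all tested genes), and against HFD 1/2 and HFD 3 alone the medians were -0.81 and -0.16. Against HFD 3 alone 17 were lower and 4 higher.

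Acads, the short-chain acyl-CoA dehydrogenase gene, stood at 9.81, 8.84 and 9.9 FPKM in HSAPN against 17.3 and 12.9 in HFD. Ech1, an auxiliary enzyme for unsaturated chains, stood at 42.7, 52.6 and 54.8 FPKM against 97.4 and 65.7. Both lay below HFD in all 3 libraries. Pdk4, the kinase that turns off pyruvate dehydrogenase, had the lowest difference of the list at -1.72, but rested on HFD 1/2: it stood at 6.02, 4.25 and 8.10 FPKM against 59.8 and 7.59. Angptl4, an inhibitor of lipoprotein lipase and a PPAR target, stood below both HFD libraries at 21.5, 18.5 and 16.8 FPKM against 36.3 and 28.3.

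Nuclear genes of the respiratory chain were lower by smaller amounts. All 57 tested, of 80 listed, had a lower mean in HSAPN, 15 without overlap (14.5% of all tested genes) and 0 past the threshold (median log2 -0.35), and after scaling 54 were lower (52.9% of all) with a median of -0.16 and 1 without overlap (7.33% of all). Against HFD 3 alone 44 were lower and 13 higher. Ndufb4, a subunit of complex I, stood at 27.2, 26.2 and 37.2 FPKM in HSAPN against 41.8 and 43.2 in HFD (log2 -0.50, SE 0.181, limma adjusted p = 0.863), and overlapped after scaling. Ndufa4 stood at 93.6, 91.8 and 129 FPKM against 165 and 133, and Atp5j2, a subunit of ATP synthase, at 24.4, 25.5 and 33.2 against 38.5 and 37.7. HSAPN replicate 3 was the highest of its group in all 3 genes, and Ndufa4 and Atp5j2 also overlapped after scaling. Against HAPN the list's median was -0.01, with 25 of 57 genes higher. Transcripts of the mitochondrial genome were split 7 to 7 (median log2 -0.05), where 73% of all tested genes were lower. Of these transcripts 1 lay entirely above HFD and 3 entirely below (5.71% and 14.5% of all tested genes). After scaling 9 were higher and 5 lower (median 0.15), with 7 entirely above HFD and 2 entirely below (11.2% and 7.33% of all). Against HFD 1/2 and HFD 3 alone the unscaled medians were -0.17 and 0.10. The ribosomal RNA mt-Rnr1 was lower at 917, 531 and 614 FPKM against 1193 and 1518, but overlapped after scaling. The gene mt-Nd5, for a subunit of complex I, was above HFD in each library at 4154, 4162 and 4557 against 4099 and 2047.

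Fat cell genes turned with the HFD library chosen. Adipoq, encoding adiponectin, stood at 0.533, 2.27 and 4.06 FPKM in HSAPN, between the HFD values of 92.6 and 0.174. Its log2 difference was -1.84 (SE 1.82) with both HFD libraries, -4.99 against HFD 1/2 and 1.32 against HFD 3. Cdh13, encoding T-cadherin, overlapped likewise at 1.85, 2.56 and 2.87 FPKM against 5.43 and 1.73 (log2 -0.30). Of 11 tested adipocyte genes 11 were lower, 1 without overlap, where 73% of all tested genes were lower and 14.5% entirely below HFD. Their median of -1.51 was -4 against HFD 1/2 and 1.24 against HFD 3. The gene without overlap was Pparg, the master regulator of fat cells, at 3.26, 2.91 and 3.47 FPKM against 5.79 and 3.48. HFD 3 and HSAPN replicate 3 nearly coincide in Pparg.

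Lipid uptake, storage and lipolysis genes shared this split, with 19 of 21 lower, 4 without overlap, and a median of -0.59 that was -1.05 against HFD 1/2 and 0.08 against HFD 3. Over all tested genes 73% were lower and 14.5% lay entirely below HFD. After scaling 18 of the list were lower and 3 without overlap, against 52.9% and 7.33% of all tested genes. Slc27a1, a fatty acid transporter, stood at 10.7, 8.29 and 9.75 FPKM in HSAPN against 32.5 and 11.7 in HFD. Cidea, a lipid droplet gene of brown fat, stood at 1.31, 1.42 and 4.14 FPKM against 10.8 and 4.18 (log2 -1.35, SE 0.474, limma adjusted p = 0.863). G0s2, an inhibitor of the lipase ATGL, was below both HFD libraries at 35.2, 38.4 and 43.2 FPKM against 50.7 and 81.1, but overlapped after scaling. Its unscaled level was higher in HFD 3 than in HFD 1/2, against the pattern of Adipoq. The 2 genes on the higher side were Fabp5, a fatty acid chaperone, and Gpihbp1, the capillary anchor of lipoprotein lipase, and both overlapped. Sncg, a gene of fat and nerve cells, stood at 2.86, 5.35 and 4.1 FPKM against 36.5 and 8.68 (log2 -1.93, SE 0.689).

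Inducible heat shock genes had lower levels in HSAPN than in HAPN, and HFD values lay near those of HSAPN. Hspa1a and Hspa1b encode the inducible chaperone HSP70. Hspa1b stood at 2.57, 2.03 and 2.28 FPKM in HSAPN, 3.36 and 2.49 in HFD, and 91.0, 64.2 and 20.3 in HAPN. Hspa1a stood at 1.05, 0.845 and 0.772 FPKM in HSAPN, 1.72 and 1.09 in HFD, and 25.6, 18.7 and 5.82 in HAPN. Every HSAPN library was below every HAPN library in both genes, and close to HFD. WT stood at 5.22, 8.06 and 8.29 FPKM in Hspa1b and at 2.52, 3.22 and 2.44 in Hspa1a, above every HSAPN and HFD library. HSAPN against HAPN called 2 of 1541 genes (0.13%), Hspa1b (log2 -3.94, SE 0.457, limma adjusted p = 0.0139) and Hspa1a (log2 -3.02, limma adjusted p = 0.0328), both lower in HSAPN than in HAPN. A p under 0.05 without adjustment was found in 114 genes (7.4%). Against HFD the same genes had log2 differences of -0.25 and -0.34 (limma adjusted p = 0.930 and 0.907); the comparisons share the HSAPN libraries. Near-identical coding sequences make the split of reads between Hspa1a and Hspa1b uncertain. Leaving out 1 library gave 0 to 3 calls against HAPN, and the count was 0 without HAPN replicate 2 or without any HSAPN replicate in turn.

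Of 8 tested heat shock genes, 7 were lower and 1 higher than HFD (4 and 4 after scaling), with a median of -0.19 against HFD and -1.47 against HAPN. Hspb1, encoding the small heat shock protein HSP27, was the gene with the lowest difference against HFD, at 111, 89.9 and 135 FPKM in HSAPN against 246 and 205 (log2 -1.02, SE 0.393). Immediate early genes, which respond to stimulation and to tissue handling, were lower in 9 of 10 tested (8 of 10 after scaling), 1 without overlap, with a median of -0.24, where 73% of all tested genes were lower and 14.5% entirely below HFD. That gene was Fos, at 14.2, 9.16 and 12.4 FPKM against 17.7 and 17.3, and it overlapped after scaling. Dusp1, encoding a phosphatase of MAP kinases, stood at 57.9, 36.3 and 53.9 FPKM against 57.8 and 109.

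Smooth muscle genes overlapped between the groups in 11 of 11 tested. With both HFD libraries 10 were lower (7 after scaling) with a median of -0.27, and against HFD 3 alone all 11 were higher with a median of 0.61. Acta2, encoding smooth muscle actin, stood at 162, 241 and 294 FPKM in HSAPN between 466 and 146 in HFD (log2 -0.21, SE 0.685). Myh11, the smooth muscle myosin, stood at 26.2, 36.7 and 42.6 FPKM between 77.3 and 15.5 (log2 -0.02, and 0.17 after scaling). Des, encoding desmin, stood at 42.3, 38.7 and 64.4 FPKM between 150 and 31.4. In these 3 genes the HFD pair spans all HSAPN values.

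Extracellular matrix genes turned in the same way, with 11 of 14 lower (8 after scaling), 1 without overlap, and medians of -0.76 and 0.24 against HFD 1/2 and HFD 3. Over all tested genes 73% were lower (52.9% after scaling) and 14.5% lay entirely below HFD. Lum, a collagen-binding proteoglycan of the adventitia, stood at 2.24, 2.28 and 3.1 FPKM against 14.4 and 2.41, and Dcn, encoding decorin, at 38.4, 33.8 and 22.5 against 76.4 and 34.0. Fibroblast markers were lower in 6 of 6 and split 3 to 3 after scaling, and against HFD 3 alone 5 of 6 were higher (median 0.04, against -0.81 for HFD 1/2 alone). Among 8 tested proteases and inhibitors (medians of -0.34 and 0.38 against HFD 1/2 and HFD 3), the collagenase gene Ctsk was above HFD in each library at 24.8, 23.9 and 35.5 FPKM against 19.2 and 22.6. Serpinf1, encoding the secreted factor PEDF, was below at 10.5, 7.66 and 7.53 FPKM against 16.5 and 13.5. Ctla2a, a cathepsin inhibitor, was below at 28.3, 26.0 and 19.2 FPKM against 35.5 and 41.6, and overlapped after scaling.

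Platelet and erythrocyte genes had medians below 0 against HFD 1/2 and above 0 against HFD 3. Platelet genes were lower in 12 of 12 tested (11 after scaling), 2 without overlap (14.5% of all tested genes), with medians of -1.36 and 0.17 against HFD 1/2 and HFD 3. The 2 were Pf4, encoding platelet factor 4, at 36.3, 38.3 and 30.9 FPKM against 116 and 43.9 (log2 -1.01, SE 0.369, limma adjusted p = 0.863), and Gng11 at 78.1, 83.0 and 79.9 against 96.9 and 98.9. After scaling Gng11 overlapped, which left Pf4 as the 1 platelet gene entirely below HFD (7.33% of all tested genes). Erythrocyte genes were higher in 10 of 10, before and after scaling, 0 without overlap before it and 5 after it (11.2% of all tested genes), with medians of -0.05 and 0.82 against HFD 1/2 and HFD 3. Slc4a1, the anion exchanger of red cells, stood at 2.08, 0.851 and 1.91 FPKM against 1.67 and 0.356. How much blood the pieces held was not tested.

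The other genes with the smallest p-values had no common list. Nnat, an imprinted gene of the endoplasmic reticulum membrane, stood at 9.04, 11.6 and 12.0 FPKM in HSAPN against 31.0 and 17.9 in HFD (log2 -1.06, SE 0.282, limma adjusted p = 0.549), with 6.03, 7.09 and 6.03 in HAPN and 5.5 to 9.81 in WT. HSAPN was thus below HFD and above each HAPN library. Fah, the last enzyme of tyrosine breakdown, stood at 10.6, 10.5 and 10.8 FPKM against 16.2 and 14.7 (log2 -0.50, SE 0.145, limma adjusted p = 0.687). Pepd, the prolidase that frees proline from collagen fragments, stood at 10.2, 10.7 and 10.7 FPKM against 16.0 and 14.2. Both genes were tight within HSAPN and at 0.43 and 0.39 below HFD 3 alone on the log2 scale. Dusp26, a phosphatase gene, stood at 0.933, 0.94 and 0.836 FPKM against 1.88 and 2.32, and passed the filter through HFD alone. On the higher side, Tspan11, a tetraspanin, stood at 19.3, 18.4 and 19.7 FPKM against 9.89 and 17.3. Ptprk, a receptor phosphatase, stood at 7.99, 9.21 and 7.75 FPKM against 6.67 and 5.94. Apol7c stood at 2.44, 5.97 and 1.47 FPKM against 0.615 and 1.47, equal at the rounding shown, and overlapped after scaling.

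Genes of insulin signalling and vascular tone, which APPL1 is known to act on, had medians on opposite sides of 0 against HFD 1/2 and HFD 3. Of 23 insulin signalling genes, 6 were tested, 2 higher and 4 lower (5 and 1 after scaling), all 6 overlapping. Their direction turned with the library, with 5 of 6 lower against HFD 1/2 alone (median -0.37) and 5 of 5 higher against HFD 3 alone (median 0.26). Irs2, an insulin receptor substrate, stood at 7.12, 6.46 and 7.08 FPKM in HSAPN against 6.57 and 5.78 in HFD. After scaling Irs2 was the 1 gene of the list entirely above HFD (11.2% of all tested genes). Slc2a4, encoding the glucose transporter GLUT4, stood at 1.74, 1.1 and 4.45 FPKM between 13.1 and 0.484. Of 7 tested vascular tone genes 3 were higher and 4 lower (5 and 2 after scaling), with medians of -0.10 and 0.27 against HFD 1/2 and HFD 3 alone. Ptgs2, encoding cyclooxygenase 2, was the gene without overlap at 5.06, 5.5 and 4.38 FPKM against 3.6 and 3.9. Over all tested genes 27% were higher and 73% lower (47.1% and 52.9% after scaling). Of all tested genes 5.71% lay entirely above HFD and 14.5% entirely below. Agtr1a, the angiotensin receptor gene, overlapped at 5.43, 3.33 and 4.22 FPKM against 4.33 and 4.92. Of 5 antioxidant genes 4 were lower (2 after scaling), and 0 genes of these lists passed the threshold.

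**Figure D5:**
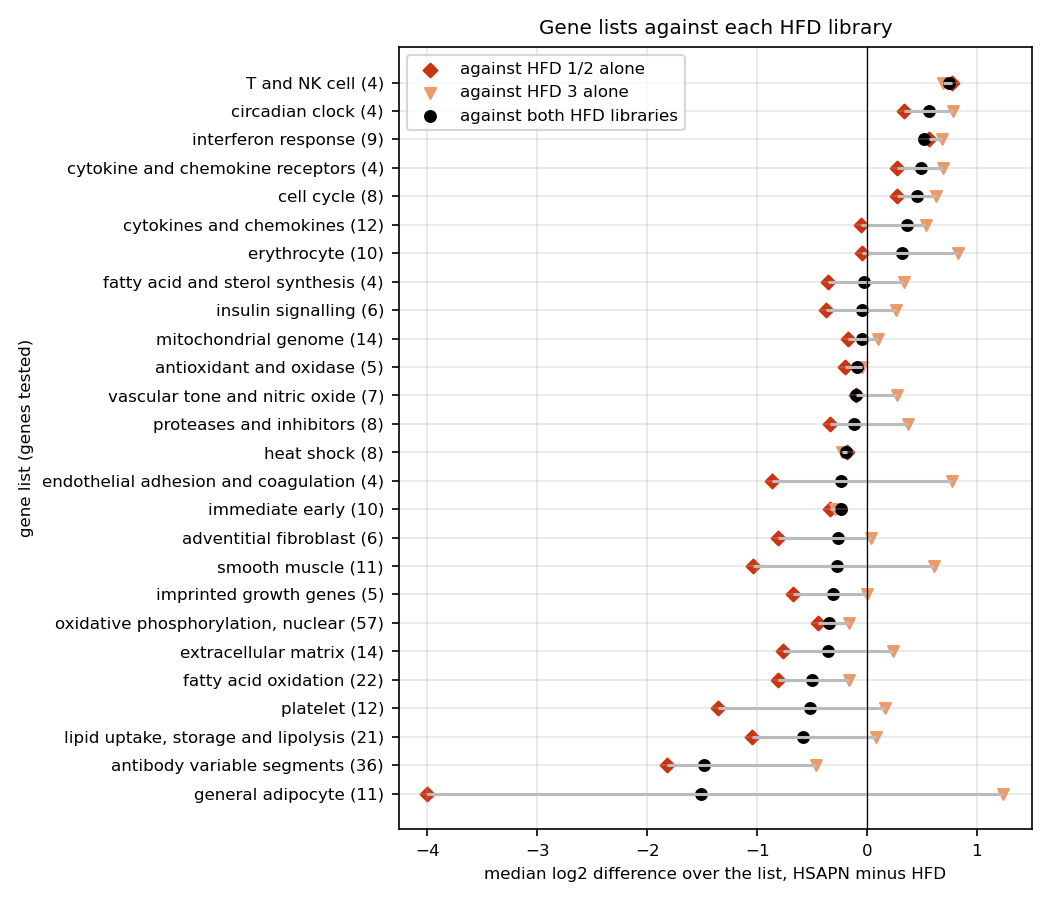
Median log2 difference HSAPN minus HFD (horizontal axis) of each list with at least 4 tested genes (vertical axis, number tested in brackets), against HFD 1/2 alone, HFD 3 alone and both. T and NK cell, clock, interferon response, receptor and cell cycle lists lie right of 0 against either library and fatty acid oxidation, respiratory chain, immediate early, heat shock and antibody lists left of it, while adipocyte, smooth muscle and platelet medians lie on opposite sides.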

How the data were processed

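Per the labels' protocols, RNA was isolated from aorta with TRIzol, and a directional NEB kit was used for the libraries. The values are FPKM per gene as deposited by the authors. Tools named by the submitters' processing notes are DESeq 1.8.3 and featureCounts 1.5.0-p3, with the build GRCm38 and without roles. Those sources give no aligner, annotation release, strand setting or rule for choosing the 3534 genes of the table. With GENCODE M21 lengths, whole reads came back from 96.2 to 97.2% of the values of at most 20 reads (tolerance 0.1), a test that cannot tell FPKM from a TPM scaling. Of the symbols, 3409 matched 1 GENCODE M21 gene. Dlg2, listed more than once, and 4 symbols turned into dates were left out.

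Differences were fitted with limma 3.58.1 (R 4.3.3, limma-trend) on log2(FPKM + 1), with 4 group means over 11 distinct libraries, 7 residual degrees of freedom, Benjamini-Hochberg adjustment over 1541 genes and a threshold of 0.05. A difference on this scale understates the change of low genes. The test was checked on simulated data. Python 3.11.15 with pandas 2.3.3, NumPy 2.4.6, Biopython 1.88 and matplotlib 3.10.9 served for tables, sequences and figures.

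Named were genes past the threshold, the 12 of smallest p on each side (mean log2(FPKM + 1) of at least 1, groups not overlapping, no unnamed models, pseudogenes or receptor segments), the 3 of smallest p in each list with at least 4 tested genes, and Adipoq, Cdh13, Acta2 and Myh11; a few genes that this rule names are not reported here. Igkv12-89, Igkv4-91, Igkv4-70, Ighg1, Tnnt2, Bpifa1 and further list members given by value were chosen after their values were seen. The members, lists and tests were chosen with earlier results of these data known. Of 45 lists, 26 had at least 4 tested genes. Alternatives were no filter, a stricter filter, pseudocounts of 0.1 and 0.5, median-ratio scaling, HSAPN and HFD fitted alone, array weights, robust spread, the identical files as separate libraries, a replicate block, limma-voom, and each library left out.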

Additional observations from a re-analysis of the deposited data

How the results depend on the processing

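With both HFD libraries 1 gene passed the threshold in HSAPN against HFD. The count was 2 with no filter and 2 with the identical files entered as separate libraries, and 0 when at least 1 FPKM was required in all 5 libraries, with pseudocounts of 0.1 and 0.5, with median-ratio scaling, array weights, robust spread or limma-voom. Beside Igkv1-133, the genes called were Gm12347 with no filter, Igkv12-89 with the identical files separate, and Igkv4-70 in place of Igkv1-133 when HSAPN and HFD were fitted alone. With 1 library left out the count ran from 0 to 1, the 1 being the rRNA model CT010467.1 without HFD replicate 1; there the lone HFD library is assumed to vary like the other groups. The replicate block also gave 0, with a smallest adjusted p of 0.0607. Same-numbered HSAPN and HFD libraries deviated from their group means with correlations of -0.34 and -0.42. With 2 distinct HFD libraries the HFD deviations mirror each other, and HFD 1/2 stands for both HFD1 and HFD2. These correlations therefore cannot show whether the numbers pair the libraries. HSAPN against HAPN, with 2 calls, gave 1 with limma-voom, 3 with the block and 0 to 3 with 1 library left out. Leaving the rRNA-like models out of the library total, chosen after seeing the data, gave 1 and 2 calls.

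Among list medians, T and NK cell genes moved from 0.74 to 1.12 with a pseudocount of 0.1 and 1.18 with limma-voom, and antibody segments from -1.48 to -2.19 with limma-voom. After scaling, heat shock genes came to -0.0302 and the mitochondrial genome to 0.148.

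With 1 library left out, medians ran from -1.04 to 0.611 for smooth muscle, -4 to 1.24 for general adipocyte, -0.0459 to 0.824 for erythrocyte, -1.36 to 0.168 for platelet, -0.228 to -0.0943 for heat shock, -1.05 to 0.0817 for lipid uptake, storage and lipolysis, -0.76 to 0.238 for extracellular matrix, -0.336 to 0.378 for proteases and inhibitors, -0.865 to 0.773 for endothelial adhesion and coagulation and -2.03 to -0.461 for antibody variable segments.

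Some single genes, all short of the threshold, changed sign. With median-ratio scaling the log2 differences came to Cald1 0.0601, Dpt 0.0147, Acaca 0.0499, Agtr1a 0.0575, Gclm 0.0885, Myh11 0.173, Tnnt2 0.0388. With limma-voom the log2 differences came to Selp 0.0596, Tnnt2 0.245. With the identical files as separate libraries the log2 differences came to F13a1 -0.0498. With a pseudocount of 0.1 the log2 differences came to Tnnt2 0.172.

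With 1 library left out, the ranges of those that changed sign were Des -1.65 to 0.574, Cald1 -0.276 to 0.033, Smtn -0.832 to 0.215, Lum -2.13 to 0.0475, Dpt -0.374 to 0.0178, Slc4a1 -0.0663 to 0.911, Bpgm -0.0251 to 0.515, Gp1bb -1.82 to 0.135, Nrgn -1.56 to 0.0387, Slc2a4 -2.16 to 1.09, Irs1 -0.183 to 0.251, Acacb -1.33 to 0.272, Fasn -0.0968 to 0.913, Acaca -0.407 to 0.195, Cav3 -0.894 to 0.271, Agtr1a -0.241 to 0.0432, F5 -1.79 to 0.773, F13a1 -0.626 to 1.1, Gclm -0.198 to 0.016, Adipoq -4.99 to 1.32, Cdh13 -0.919 to 0.318, Acta2 -1.04 to 0.621, Myh11 -1.14 to 1.1, Tnnt2 -2.78 to 2.45 and Bpifa1 -5.92 to 3.96.

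Counting each result once per alternative, 433 values of the counts and medians moved by at most 1.5 times (counts) or by less than 1 SD between replicates (medians). Another 38 moved further. Among the single genes 1519 values kept their direction and side of the threshold, while 42 changed sign, 11 lost the threshold and 2 gained it. Results on genes at the level of a few reads, such as Igkv1-133, are limited by depth. Genes below the filter after 1 HFD library was left out have no value there.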
